A study of Mus musculus with 4 samples.

Results

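The 9 genes described here encode 6 matrix metalloproteinases (Mmp8, Mmp9, Mmp12, Mmp13, Mmp14 and Mmp19), the membrane-anchored disintegrin metalloproteinase Adam8, and the tissue inhibitors of metalloproteinases Timp1 and Timp2. They were chosen by symbol among the 27998 genes counted in each library, and each symbol matched 1 gene (Mmp8 ENSMUSG00000005800, Mmp13 ENSMUSG00000050578, Mmp9 ENSMUSG00000017737, Mmp12 ENSMUSG00000049723, Mmp14 ENSMUSG00000000957, Mmp19 ENSMUSG00000025355, Adam8 ENSMUSG00000025473, Timp1 ENSMUSG00000001131, Timp2 ENSMUSG00000017466). The counts come from single-cell RNA sequencing of CD45+ cells, sorted for a surface marker shared by leukocytes, from the nasal mucosa of C57BL/6 mice aged 8 weeks. The 4 groups, Vehicle, Ribavirin, Vehicle-OVA and Ribavirin-OVA, had 1 library each. The allergen of this rhinitis model was ovalbumin (OVA), and ribavirin is an antiviral drug that the series title names as a spray against viruses resident in the nose. The mice of every group had either vehicle or ribavirin, and the control of each OVA library is the library with the same treatment and no OVA. The number of mice behind a library is not given in the sources used here, and the study's text describes only control and OVA mice. No test was run because there were no replicates, and every interval in brackets is a 95% interval that covers counting error only.

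Matrix metalloproteinases are zinc-dependent enzymes that cut collagens, elastin, fibronectin and many secreted or surface proteins. Most are made as inactive proenzymes whose propeptide has to be removed by other proteases, and TIMPs bind the active site of the activated enzymes. Mmp8, the neutrophil collagenase, and Mmp9, gelatinase B, are stored in neutrophil granules, Mmp12 is macrophage elastase, Mmp13 is an interstitial collagenase, and Mmp14 is a membrane-bound enzyme that also activates other proenzymes.

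By RefSeq on GRCm38.p6, the genes for Mmp13 (chr9:7272514-7283333), Mmp12 (chr9:7344397-7360461) and Mmp8 (chr9:7558429-7568486) lie in 1 block of chromosome 9 that holds 7 Mmp genes in 296 kb. The other 4 Mmp genes of the block were nearly silent in these cells, and the highest of them had 81 UMIs over the 4 libraries. The remaining genes lie apart, with Mmp9 at chr2:164940326-164955850, Mmp14 at chr14:54431598-54442456, Mmp19 at chr10:128790910-128800827, Adam8 at chr7:139978932-139995207, Timp1 at chrX:20870166-20874737 and Timp2 at chr11:118301061-118355411. The RefSeq promoters of the 3 neighbouring genes are shown because their transcripts were found in different cells. Mmp8 was found mostly in cells of the neutrophil lineage and Mmp13 mostly in macrophage-like clusters. Mmp12 was mostly in macrophage-like clusters with OVA, and in monocyte-like and conventional dendritic cell-like cells without it. Each run is 300 bases on the plus strand, from 250 bases before the start site to 50 after it, and capitals mark TGANTCA, the recognition sequence of the Fos and Jun family (AP-1), searched on both strands.
Mmp13, chr9:7272264-7272563: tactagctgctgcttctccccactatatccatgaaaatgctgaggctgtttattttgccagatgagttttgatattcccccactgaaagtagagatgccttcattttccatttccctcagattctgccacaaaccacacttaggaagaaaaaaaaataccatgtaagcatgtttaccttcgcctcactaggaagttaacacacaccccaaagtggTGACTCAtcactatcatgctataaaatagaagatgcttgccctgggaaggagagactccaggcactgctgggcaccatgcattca
Mmp12, chr9:7347124-7347423: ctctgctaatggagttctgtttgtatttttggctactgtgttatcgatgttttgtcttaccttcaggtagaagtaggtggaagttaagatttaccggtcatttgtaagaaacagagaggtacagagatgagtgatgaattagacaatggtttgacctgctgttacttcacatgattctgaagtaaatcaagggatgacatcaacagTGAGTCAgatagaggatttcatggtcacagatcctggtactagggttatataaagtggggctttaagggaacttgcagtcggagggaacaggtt
Mmp12, second RefSeq start, chr9:7344147-7344446: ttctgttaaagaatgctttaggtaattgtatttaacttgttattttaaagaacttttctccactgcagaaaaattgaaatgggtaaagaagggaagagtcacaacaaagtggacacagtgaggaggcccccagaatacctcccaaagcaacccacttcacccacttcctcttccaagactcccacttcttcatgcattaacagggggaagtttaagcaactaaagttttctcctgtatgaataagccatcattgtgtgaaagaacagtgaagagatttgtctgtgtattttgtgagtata
Mmp8, chr9:7558179-7558478: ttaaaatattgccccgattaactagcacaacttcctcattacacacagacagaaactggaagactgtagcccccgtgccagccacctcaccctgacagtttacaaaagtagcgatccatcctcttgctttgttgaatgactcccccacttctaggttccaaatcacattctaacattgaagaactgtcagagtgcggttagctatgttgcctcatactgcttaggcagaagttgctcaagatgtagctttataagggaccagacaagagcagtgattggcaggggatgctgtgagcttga
Mmp13 had TGACTCA starting 35 bases before the start site, and Mmp12 had TGAGTCA starting 44 bases before 1 of its 2 start sites. The Mmp8 window had no match. Of the 7 genes with a RefSeq promoter (8 windows), 2 had a match, against 7.81% of all 32851 promoter windows of this length. Mmp9 and Mmp19 had no entry.

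The libraries held 10311 to 28277 barcodes with 91742940 to 171873110 UMIs and median depths of 3389 to 4952 UMIs. Vehicle, Vehicle-OVA and Ribavirin-OVA held barcodes down to 500 or 501 UMIs, while the shallowest barcode of Ribavirin had 1782, and 636 barcode sequences occurred in more than 1 library. After filters, 65970 cells were kept and clustered together without the 9 genes described here, so that the clusters were not built on them. Ptprc, which encodes CD45, stood at 912 CPM (the UMIs of a gene scaled to the same fixed total of UMIs in every library or cell class) over all cells. It was at 36.3 CPM in the 1818 epithelial-like, neuron-like and endothelial-like cells (2.76% of all), which were kept as labelled. Clusters were named with "-like" from marker genes. Clusters 4 and 6, named neutrophil-like, had Siglecf of the eosinophil list among their leading genes, cluster 7, named macrophage-like, had Arg1 of the ILC2 list, and cluster 30 had Sparc of the stromal list, and none of them had a marker of its own class there. Results are therefore given by cluster number, and sums over the neutrophil-like clusters (1, 2, 4, 6, 10, 11 and 21) or the macrophage-like clusters (7, 8, 20, 30 and 35) are sums over unlike cells. Their counts are given beside those of a stricter naming without clusters 4, 6, 7 and 30. A gene where that naming ended a 2-fold difference is given with its value. Neutrophil-like clusters 2 and 11 also lacked a marker of their own class among their leading genes, and that naming keeps them. Cluster 11 had 5 of the 11 neutrophil markers detected, and cluster 2 had 10. Neutrophil-like clusters made up 28.6% and 33.0% of the cells of Vehicle and Ribavirin and 63.3% and 26.8% of those of Vehicle-OVA and Ribavirin-OVA. Macrophage-like clusters made up 9.46%, 9.21%, 15.5% and 21.4% in that order.

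To see which cells held the transcripts, the UMIs of each gene were divided among the cell classes of each library. Mmp9 and Mmp8 were found mostly in the neutrophil lineage. Of the Mmp9 UMIs, neutrophil-like clusters held 89.4% in Vehicle, 82.1% in Vehicle-OVA, 79.6% in Ribavirin and 62.6% in Ribavirin-OVA. Cluster 24, led by Camp and Ngp, which are granule genes of developing neutrophils, and called progenitor-like, held a further 6.38% to 29.3%. For Mmp8 the progenitor-like cluster was the larger source in 3 of 4 libraries, although it had only 0.447% to 3.15% of the cells. It held 48.0% in Vehicle, 20% in Vehicle-OVA, 62.0% in Ribavirin and 81.8% in Ribavirin-OVA. Vehicle-OVA was the exception, where neutrophil-like clusters held 71.5%.

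Mmp12, Mmp14, Mmp19 and Timp1 were carried mostly by other cells without OVA than with it, while macrophage-like clusters held most of the Mmp13 UMIs in each library (62.4% in Vehicle and 51.2% in Ribavirin). In Vehicle, monocyte-like cells held 53.6% of the Mmp14 UMIs, 57.1% of those of Mmp19 and 74.0% of those of Timp1, and Mmp12 was divided between monocyte-like cells (45.0%) and conventional dendritic cell (cDC)-like cells (43.3%). In Vehicle-OVA the macrophage-like clusters held 94.3% of Mmp12, 94.3% of Mmp13, 88.2% of Mmp14, 78.3% of Mmp19 and 83.2% of Timp1. The same shares in Ribavirin-OVA were 93.0%, 96.4%, 84.0%, 81.5% and 80.8%. Adam8, which is known from granulocytes and other myeloid cells, was spread over the lineages, with neutrophil-like clusters holding 51.1% in Vehicle, 70.5% in Vehicle-OVA, 62.7% in Ribavirin and 29.9% in Ribavirin-OVA. Macrophage-like clusters held 4.95% in Vehicle, 20.9% in Vehicle-OVA, 3.74% in Ribavirin and 35.3% in Ribavirin-OVA. Timp2 was held mostly by macrophage-like clusters (52.9% in Vehicle, 56.2% in Vehicle-OVA, 42.6% in Ribavirin and 69.4% in Ribavirin-OVA), and T cell-like cells held 22.0% in Vehicle, 5.20% in Vehicle-OVA, 19.1% in Ribavirin and 6.47% in Ribavirin-OVA. Monocyte-like cells were 13.3% and 12.5% of the cells of Vehicle and Ribavirin and 1.99% and 4.03% of those of Vehicle-OVA and Ribavirin-OVA. Their part in these shares was not tested.

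**Figure D1:**
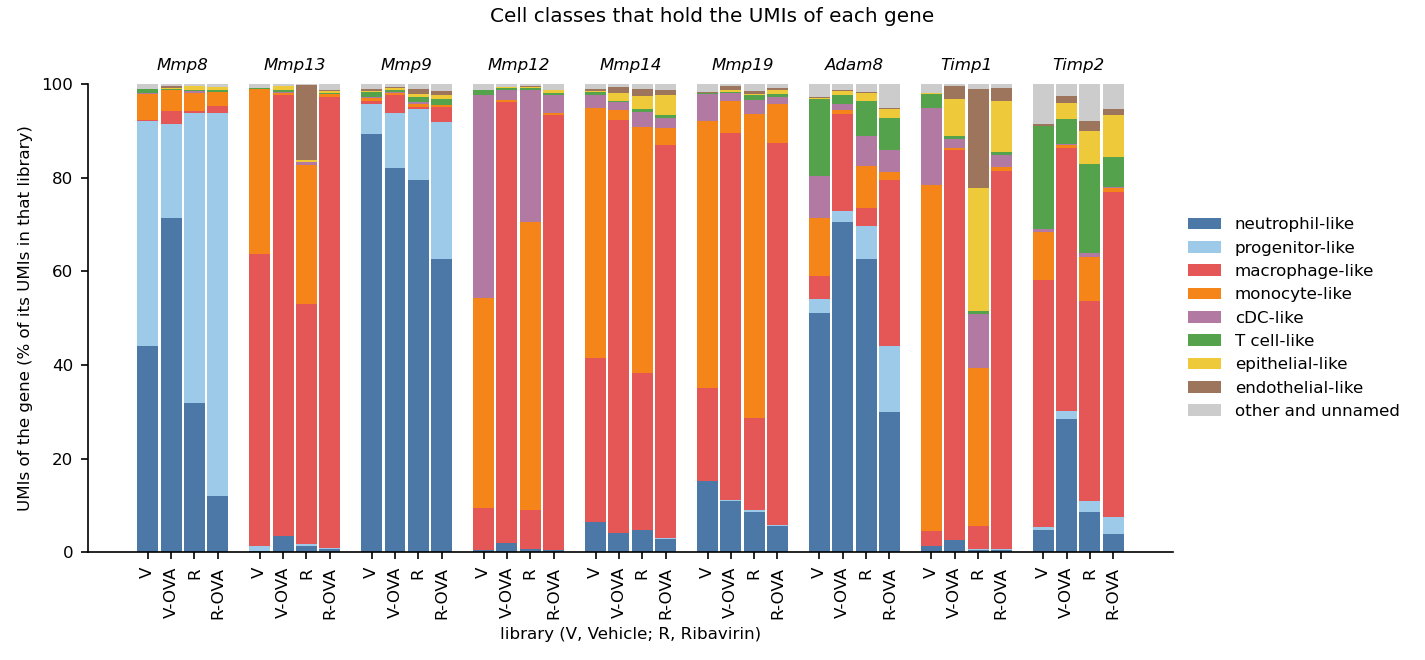
Stacked bars give the percent of each gene's UMIs (y axis) that each cell class held in each of the 4 libraries (x axis, 1 bar per library and gene). Mmp8 and Mmp9 sit in the neutrophil-like and progenitor-like classes in every library, and the macrophage-like part of Mmp12 goes from 9.01% in Vehicle to 94.3% in Vehicle-OVA.

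The order of the classes by level was steady for some genes and not for others. It covers the 12 classes with at least 50 cells in every library, which leaves out endothelial-like, mast cell-like and neuron-like cells. Endothelial-like cells (15, 35, 89 and 47 cells) stood above these classes in places, with 54.3 CPM of Mmp13 in Ribavirin and with 402 CPM of Timp1 in Vehicle-OVA and 309.8 in Ribavirin. Cluster 24 had the highest Mmp8 level in every library, 5.76-fold (5.54 to 5.99) above the next class, neutrophil-like, in Vehicle-OVA and 27.9-fold (26.2 to 29.8) above it in Vehicle. It also had the highest Mmp9 level in each, 1.57-fold to 2.99-fold above neutrophil-like clusters. Among the 12 classes, macrophage-like clusters had the highest Timp2 level in all 4 libraries and the highest Mmp13 level in all 4, but in Vehicle the Mmp13 lead over the next class, 1.93-fold (0.650 to 9.45), was within counting error. For Mmp14, Mmp19 and Timp1, monocyte-like cells were first in Vehicle and in Ribavirin and macrophage-like clusters in both OVA libraries. For Mmp12, cDC-like cells were first in Vehicle (56.6 CPM), monocyte-like and cDC-like cells did not differ beyond counting error in Ribavirin (40.4 and 37.0 CPM, ratio 1.09, 0.968 to 1.23), and macrophage-like clusters were first in both OVA libraries.

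To ask how the genes stood with OVA, the CPM of all kept cells of a library was compared with that of its control. A gene was counted as higher or lower at a ratio of 2-fold or more between CPM values to which 1 CPM had been added, with at least 50 UMIs over the 4 libraries, and the same count over all 16357 such genes is given as the background. All 9 genes had enough UMIs. Under vehicle, 7 of 9 were higher with OVA (Timp1, Mmp13, Mmp12, Adam8, Mmp8, Mmp19 and Mmp14) against 10.1% of all genes, and 0 of 9 were lower against 5.42%. Under ribavirin, 6 of 9 were higher (the same list without Adam8) against 5.85%, and 0 were lower against 1.23%. The median log2 ratio of the 9 genes was 2.60 under vehicle and 1.16 under ribavirin, beside 0.02 and 0.29 over all genes. With the ratios set against that shift of 0.29, the count under ribavirin was 3 of 9 (Mmp12, Mmp13 and Timp1).

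Timp1, which inhibits most matrix metalloproteinases and binds the Mmp9 proenzyme, stood at 2.93 CPM in Vehicle, 117 in Vehicle-OVA, 11.8 in Ribavirin and 93.1 in Ribavirin-OVA. Both OVA libraries lay above both controls, 39.7-fold (35.9 to 44.1) above Vehicle and 7.90-fold (7.48 to 8.34) above Ribavirin. Mmp12 stood at 10.9 CPM in Vehicle, 151 in Vehicle-OVA, 9.99 in Ribavirin and 96.5 in Ribavirin-OVA, which was 13.8-fold (13 to 14.6) and 9.66-fold (9.12 to 10.2) higher with OVA. Mmp13 stood at 2.17 CPM in Vehicle, 44.7 in Vehicle-OVA, 2.77 in Ribavirin and 12.0 in Ribavirin-OVA, and its 2 ratios with OVA, 20.6-fold (18.3 to 23.3) and 4.35-fold (3.86 to 4.92), lay far apart. Mmp8 was at 31.8 CPM in Vehicle, 198 in Vehicle-OVA, 57.5 in Ribavirin and 131 in Ribavirin-OVA and Mmp19 at 5.98 CPM in Vehicle, 36.0 in Vehicle-OVA, 7.85 in Ribavirin and 18.8 in Ribavirin-OVA. For both genes the OVA libraries were the 2 highest. Mmp14 was at 84.9 CPM in Vehicle, 217 in Vehicle-OVA, 61.9 in Ribavirin and 138 in Ribavirin-OVA, 2.55-fold (2.49 to 2.61) and 2.23-fold (2.17 to 2.30) higher. Adam8 was at 51.5 CPM in Vehicle, 356 in Vehicle-OVA, 83.4 in Ribavirin and 123 in Ribavirin-OVA, so that its ratio was 6.92-fold (6.74 to 7.11) in the vehicle pair and 1.48-fold (1.44 to 1.52), which is under 2-fold, in the ribavirin pair. Mmp9 (168 CPM in Vehicle, 319.6 in Vehicle-OVA, 172 in Ribavirin and 266 in Ribavirin-OVA) and Timp2 (129 CPM in Vehicle, 155 in Vehicle-OVA, 105 in Ribavirin and 175 in Ribavirin-OVA) stayed under 2-fold in both pairs. In sums over all cells, a higher level cannot be told apart from a larger share of the cells that carry the transcript, and the share of neutrophil-like clusters differed between the libraries as given above.

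**Figure D2:**
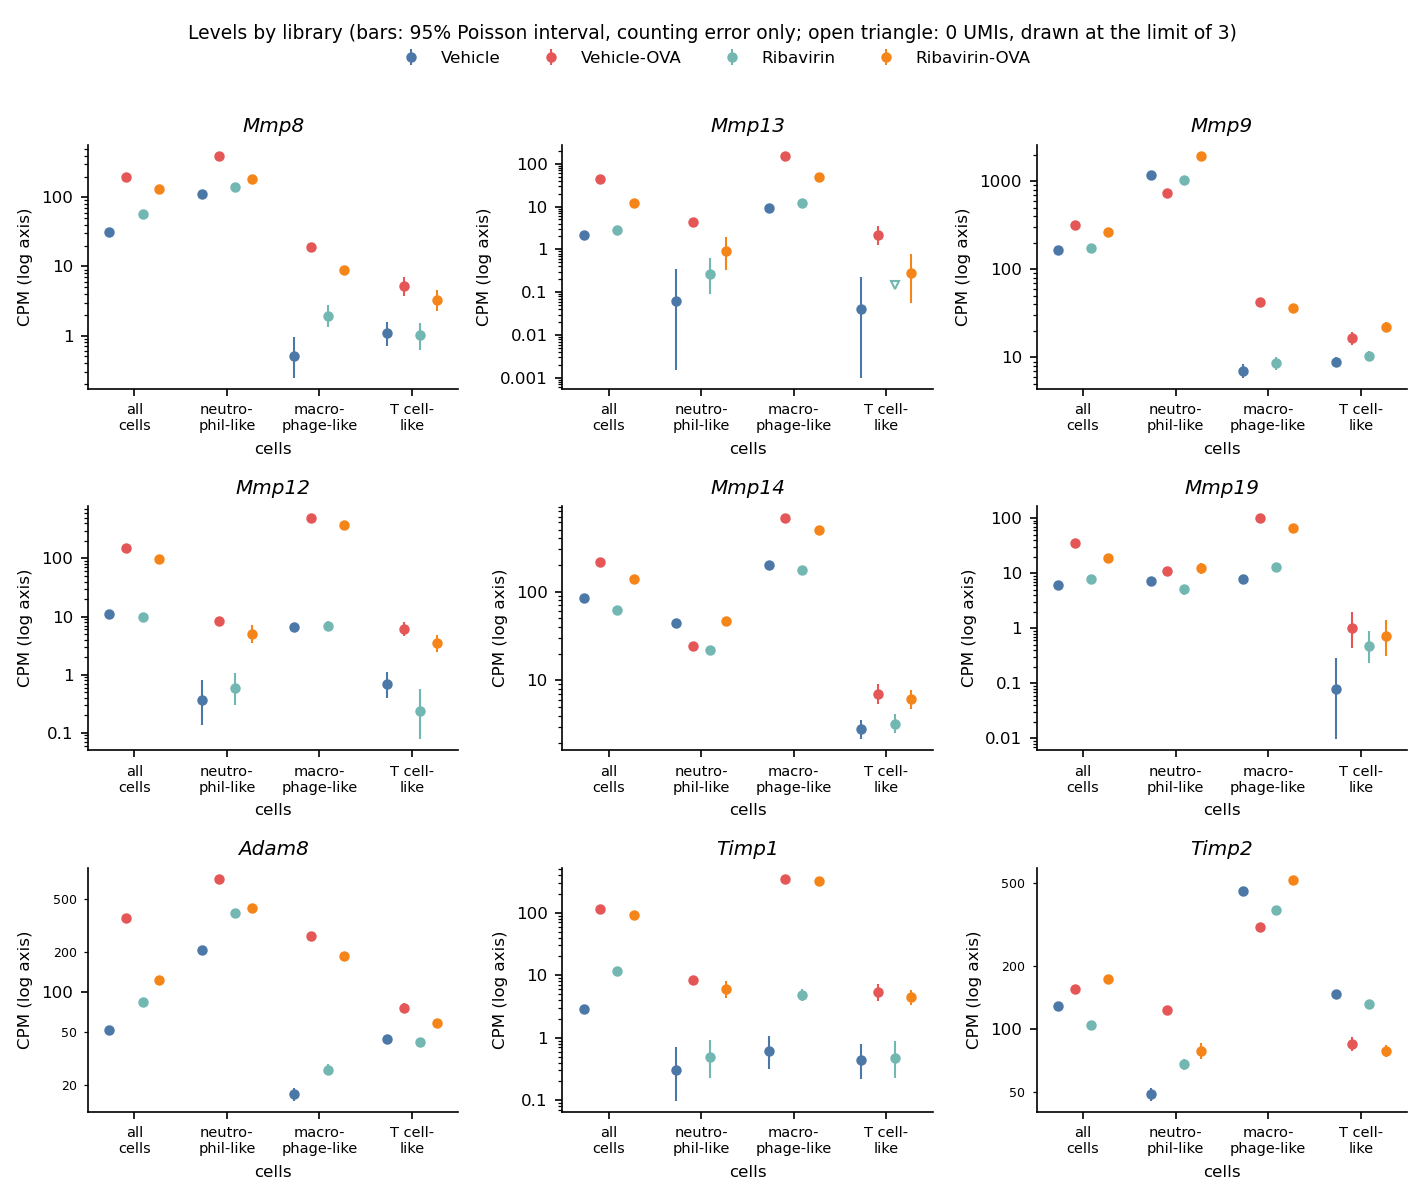
Points give the CPM of each gene (y axis, log scale) in the 4 libraries for all cells, the neutrophil-like clusters, the macrophage-like clusters and T cell-like cells (x axis), bars are 95% Poisson intervals, and an open triangle marks 0 UMIs, drawn at the limit that 3 counts give. In macrophage-like clusters the 2 OVA libraries lie above the 2 controls for every gene but Timp2, where Vehicle-OVA is the lowest at 309.7 CPM.

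The macrophage-like clusters had the most of the 9 genes past 2-fold with OVA among the 3 sums compared (all cells, neutrophil-like and macrophage-like clusters). Over these clusters together, 8 of 9 genes were higher with OVA under vehicle against 10.5% of the 11887 genes with enough UMIs, and 0 were lower against 5.55%. Under ribavirin the same 8 genes (all but Timp2) were higher against 8.21%, and 0 were lower against 3.59%. The median log2 ratio of the 9 genes was 3.71 and 1.97, beside 0.17 and 0.22 over all genes. With the stricter naming, which leaves clusters 8, 20 and 35, the counts were 7 and 6. The shares over all genes above do not cover that naming. The clusters that made up the sum were not the same. Cluster 8, led by Ccl7 and Vcam1, was 78.3% of the macrophage-like cells of Vehicle and 72% of those of Ribavirin, but 3.90% and 5.58% with OVA. Cluster 7, led by Ccl24 (an eosinophil-attracting chemokine) and Arg1 (arginase), was 73.2% of the macrophage-like cells of Vehicle-OVA and 68.8% of those of Ribavirin-OVA, but 0.556% and 2.28% of those of their controls. Cluster 7 had 12 cells in Vehicle and 39 in Ribavirin, and cluster 8 had 98 and 101 cells in the OVA libraries, so that levels within these clusters are known only roughly on 1 side.

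With the libraries pooled, cluster 7 carried the highest levels of 6 of the 9 genes among the macrophage-like clusters. Its pooled level was 368 CPM for Timp1, against 1.47 in cluster 8, 107 in cluster 20 and 37.4 in cluster 30. For Mmp12 the levels were 496, 4.20, 258 and 5.55 CPM in clusters 7, 8, 20 and 30. For Mmp13 they were 114, 12.6, 66.7 and 4.68 CPM, and for Mmp14 they were 644, 203, 290.3 and 61.4 CPM. Cluster 20, which held cells of all 4 libraries (163 to 514), had a median depth of 1198 UMIs per cell against 10372 in cluster 7, and Gm26917 and Gm42418 led its genes. Timp2 had another order, with 754 CPM in cluster 30 (led by Crybb1 and Sall1) as the highest, a place it had in each library. The pooled levels of the others were 442 CPM in cluster 8, 366 in cluster 7 and 295 in cluster 20, but in both controls cluster 20 was above cluster 8.

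**Figure D3:**
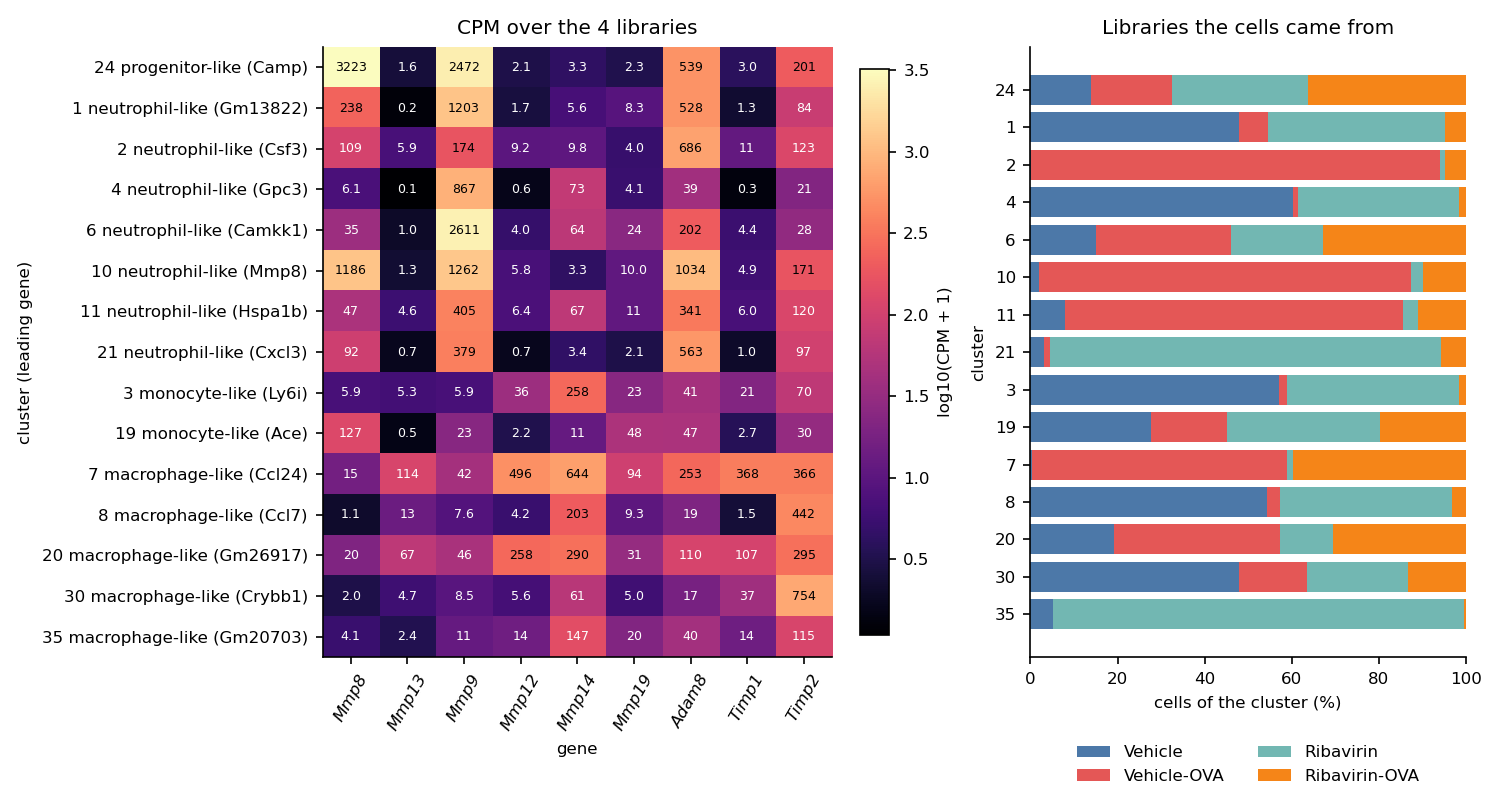
The left panel gives the CPM of each gene (columns, colour on a log10 scale, values printed) in each progenitor-like, neutrophil-like, monocyte-like and macrophage-like cluster (rows, with the leading gene), and the right panel gives the percent of each cluster's cells that came from each library. Cluster 7 has 496 CPM of Mmp12 and 368 CPM of Timp1 and comes almost wholly from the 2 OVA libraries, and cluster 8 comes mostly from their controls.

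Timp1 in the macrophage-like clusters was 0.617 CPM in Vehicle, 345 in Vehicle-OVA, 4.83 in Ribavirin and 319.9 in Ribavirin-OVA. The controls rested on 12 and 80 UMIs, so the ratios, 558-fold (319 to 1081) and 66.2-fold (53.1 to 83.7), have wide intervals. Both OVA libraries lay far above both controls. Without cluster 7 and cluster 30 the log2 ratios were 5.91 and 3.31, against 7.74 and 5.78 with them. Of the clusters left, cluster 20 had 181 Timp1 UMIs in Vehicle-OVA and 66 in Ribavirin-OVA, against 5 and 12 in cluster 8. Cluster 20 was shallow (median 1198 UMIs per cell), and Ccl24, which led cluster 7, was also among its leading genes. Within cluster 8 the level was 0.570 CPM in Vehicle, 4.37 in Vehicle-OVA, 1.64 in Ribavirin and 9.49 in Ribavirin-OVA, from 10, 5, 22 and 12 UMIs, and in cluster 20 it was 2.62 CPM in Vehicle, 228 in Vehicle-OVA, 6.16 in Ribavirin and 95.5 in Ribavirin-OVA. The OVA libraries were the higher ones in cluster 20, whereas the levels of cluster 8 were of the order of those in T cell-like cells (0.441 CPM in Vehicle, 5.32 in Vehicle-OVA, 0.480 in Ribavirin and 4.47 in Ribavirin-OVA) and are not read as expression. In cluster 30 the level was 0.764 CPM in Vehicle, 15.4 in Vehicle-OVA, 1.44 in Ribavirin and 151 in Ribavirin-OVA, with Ribavirin-OVA alone high.

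Mmp12, the elastase that macrophages secrete, was at 6.59 CPM in Vehicle, 505 in Vehicle-OVA, 6.94 in Ribavirin and 381 in Ribavirin-OVA in the macrophage-like clusters, 76.7-fold (64.4 to 92.0) and 55.0-fold (45.7 to 66.7) higher with OVA. In cluster 20 it was 2.62 CPM in Vehicle, 524 in Vehicle-OVA, 0 in Ribavirin and 275 in Ribavirin-OVA, with 1 UMI in Vehicle and 0 in Ribavirin, where 0 UMIs allow up to 6.16 CPM. In cluster 8 it was 4.73 CPM in Vehicle, 8.73 in Vehicle-OVA, 2.98 in Ribavirin and 5.53 in Ribavirin-OVA, and the OVA ratios there, 1.84-fold (0.853 to 3.56) and 1.86-fold (0.701 to 4.19), were within counting error. The 12 cells of cluster 7 in Vehicle had 412 CPM and the 39 cells in Ribavirin had 128 CPM, so the transcript was also found in that cluster without OVA. Over all macrophage-like cells, 1 cell held 34 of the 128 Mmp12 UMIs of Vehicle and 1 cell held 34 of the 115 of Ribavirin. The values of cluster 7 without OVA may therefore rest on few cells. Few cells held most of the Mmp12 UMIs. In Vehicle-OVA, 19.6% of the macrophage-like cells had a UMI, the 251 cells with most of it held 97.4% of the UMIs, and 1 cell had 682. In Ribavirin-OVA 1 cell had 861 UMIs, which was 12.6% of the total.

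Mmp13 followed the same clusters but differed between the OVA libraries. It was 9.06 CPM in Vehicle, 149.9 in Vehicle-OVA, 11.8 in Ribavirin and 49.4 in Ribavirin-OVA in the macrophage-like clusters, 16.6-fold (14.2 to 19.4) and 4.17-fold (3.57 to 4.90) higher with OVA. Within cluster 7 it was 162 CPM in Vehicle-OVA and 52.5 CPM in Ribavirin-OVA. Within cluster 8 it was 9.64 CPM in Vehicle, 24.4 in Vehicle-OVA, 13.7 in Ribavirin and 30.0 in Ribavirin-OVA, so that both OVA libraries were higher there too, 2.54-fold (1.64 to 3.80) and 2.19-fold (1.5 to 3.12). Its UMIs also lay in few cells, as 1 cell of Vehicle-OVA had 226, and 10.4% of its macrophage-like cells had any.

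Mmp14 was spread over many cells. It was 198 CPM in Vehicle, 679 in Vehicle-OVA, 173 in Ribavirin and 493 in Ribavirin-OVA in the macrophage-like clusters, and 63.0% of the macrophage-like cells of Vehicle and 79.6% of those of Vehicle-OVA had a UMI, and the 251 cells of Vehicle-OVA with most of it held 33.9%. Within cluster 8 it was 212 CPM in Vehicle, 324 in Vehicle-OVA, 177 in Ribavirin and 265 in Ribavirin-OVA, 1.53-fold (1.37 to 1.70) and 1.5-fold (1.33 to 1.68) higher with OVA, and within cluster 30 it was 21.4 CPM in Vehicle, 129 in Vehicle-OVA, 15.8 in Ribavirin and 113 in Ribavirin-OVA. In monocyte-like cluster 3, led by Ly6i and Cxcl9, it was 246 CPM in Vehicle, 526 in Vehicle-OVA, 254 in Ribavirin and 532 in Ribavirin-OVA. The OVA libraries were higher in each of these clusters, although cluster 3 had only 85 and 73 cells with OVA. With the stricter naming, the log2 ratios over macrophage-like clusters were 0.87 and 0.67, both under 2-fold.

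Mmp19 and Adam8 were higher with OVA in the macrophage-like clusters as well. Mmp19 was 7.92 CPM in Vehicle, 100.2 in Vehicle-OVA, 13 in Ribavirin and 65.0 in Ribavirin-OVA there, and Adam8 was 17.0 CPM in Vehicle, 264 in Vehicle-OVA, 26.1 in Ribavirin and 185 in Ribavirin-OVA. Under the stricter naming the log2 ratios were 1.77 in the vehicle pair and 0.60, which is under 2-fold, in the ribavirin pair for Mmp19 (3.5 and 2.24 with all clusters), and 2.73 and 1.03 for Adam8 (3.88 and 2.78). Within cluster 8 Mmp19 was 8.04 CPM in Vehicle, 11.4 in Vehicle-OVA, 10.5 in Ribavirin and 11.1 in Ribavirin-OVA, with ratios of 1.41-fold (0.733 to 2.49) and 1.05-fold (0.561 to 1.83) that were within counting error, and cluster 7 stood at 94.4 CPM over the libraries. In monocyte-like cluster 19, led by Ace, which holds cells of all libraries, Mmp19 was 30.8 CPM in Vehicle, 74.4 in Vehicle-OVA, 46.5 in Ribavirin and 42.8 in Ribavirin-OVA. Adam8 within cluster 8 was 16.6 CPM in Vehicle, 46.3 in Vehicle-OVA, 19.8 in Ribavirin and 22.1 in Ribavirin-OVA, 2.79-fold (2.04 to 3.75) higher under vehicle and within counting error under ribavirin (1.12-fold, 0.730 to 1.66).

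Timp2 was the only one of the 9 genes that was not 2-fold higher with OVA in either pair of macrophage-like sums. It was 458 CPM in Vehicle, 309.7 in Vehicle-OVA, 373 in Ribavirin and 515 in Ribavirin-OVA, which made 0.677 times (0.656 to 0.698) the level of Vehicle in Vehicle-OVA and 1.38 times (1.34 to 1.43) the level of Ribavirin in Ribavirin-OVA. Within cluster 8 both OVA libraries were higher (455 CPM in Vehicle, 568 in Vehicle-OVA, 398 in Ribavirin and 604 in Ribavirin-OVA), in cluster 30 they were also higher (531 CPM in Vehicle, 768 in Vehicle-OVA, 513 in Ribavirin and 1338 in Ribavirin-OVA), and in cluster 20 they were lower (485 CPM in Vehicle, 181 in Vehicle-OVA, 442 in Ribavirin and 217 in Ribavirin-OVA). The direction of Timp2 therefore differed between clusters.

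Mmp8 and Mmp9, genes of the neutrophil lineage, also had more UMIs in the macrophage-like clusters of the OVA libraries. Mmp9 was 7.05 CPM in Vehicle, 42.8 in Vehicle-OVA, 8.63 in Ribavirin and 36.8 in Ribavirin-OVA and Mmp8 was 0.515 CPM in Vehicle, 18.9 in Vehicle-OVA, 1.93 in Ribavirin and 8.74 in Ribavirin-OVA. The summed level of the 11 neutrophil markers in the same cells was 707 CPM in Vehicle, 2242 in Vehicle-OVA, 862 in Ribavirin and 798 in Ribavirin-OVA, with 11 of 11 markers detected in each library and none at 0. It was highest in Vehicle-OVA, as Mmp8 was, and its part in the result was not tested. In T cell-like cells, which are not known to store these enzymes, Mmp9 was 8.85 CPM in Vehicle, 16.6 in Vehicle-OVA, 10.5 in Ribavirin and 22.3 in Ribavirin-OVA and Mmp8 was 1.08 CPM in Vehicle, 5.19 in Vehicle-OVA, 1.01 in Ribavirin and 3.28 in Ribavirin-OVA, so a low level occurred in cells outside the lineage. The epithelial list in the macrophage-like clusters summed to 54.5 CPM in Vehicle, 76.1 in Vehicle-OVA, 145 in Ribavirin and 379 in Ribavirin-OVA and the endothelial list to 14.2 CPM in Vehicle, 98.4 in Vehicle-OVA, 21.1 in Ribavirin and 79.6 in Ribavirin-OVA, with Cldn4 at 0 in Vehicle and Emcn at 0 in Ribavirin. Epithelial-like cells, whose clusters differed between the libraries (cluster 33, led by Muc5ac, had 1 cell in Vehicle and 60 in Vehicle-OVA, 163 in Ribavirin and 132 in Ribavirin-OVA), carried Timp1 at 1.72 CPM in Vehicle, 172 in Vehicle-OVA, 16.1 in Ribavirin and 57.4 in Ribavirin-OVA. Endothelial-like cells carried it at 0 CPM in Vehicle, 402 in Vehicle-OVA, 309.8 in Ribavirin and 255 in Ribavirin-OVA, where 0 UMIs in Vehicle allow up to 15.2 CPM. The part of these cells in the Timp1 level of the macrophage-like clusters was not tested.

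**Figure D4:**
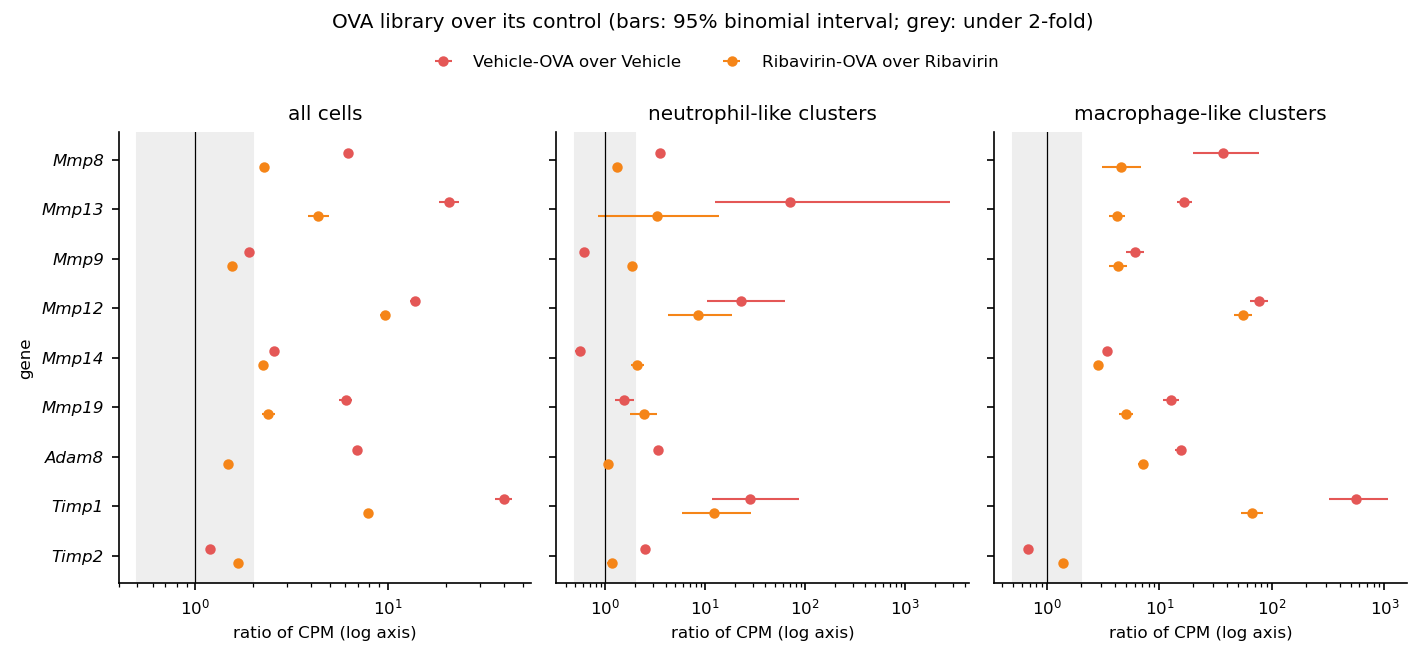
Points give the ratio of CPM between an OVA library and its control (x axis, log scale) for each gene (y axis) in all cells, the neutrophil-like and the macrophage-like clusters, with 95% binomial intervals and the range under 2-fold in grey. In macrophage-like clusters 8 genes lie right of the grey band in both pairs, and in neutrophil-like clusters Mmp9 and Mmp14 lie left of 1 under vehicle (0.617 and 0.556) and right of 1 under ribavirin.

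In the neutrophil-like clusters together, 6 of 9 genes were higher with OVA under vehicle (Mmp8, Mmp12, Mmp13, Adam8, Timp1 and Timp2) against 6.8% of the 10969 genes with enough UMIs, and 0 of 9 were lower against 34.6%. Under ribavirin 4 were higher (Mmp12, Mmp14, Mmp19 and Timp1) against 7.69%, and 0 were lower against 2.42%. Over all genes the median log2 ratio was -0.67 with OVA under vehicle, and 0.31 in the ribavirin pair, so the ratios of these sums were shifted as a whole, and the median of the 9 genes was 1.75 and 0.89. With the stricter naming, without clusters 4 and 6, the counts were 5 and 3, for which no share over all genes is given. The call of Mmp19 under ribavirin was under 2-fold in 5 of 14 alternatives, the stricter naming among them (log2 ratio 0.90), and within cluster 6 its ratio was 1.03-fold (0.648 to 1.67). Mmp12, Mmp13 and Timp1 had few UMIs in these cells, at 0.365 CPM in Vehicle, 8.31 in Vehicle-OVA, 0.599 in Ribavirin and 5.11 in Ribavirin-OVA for Mmp12 and 0.305 CPM in Vehicle, 8.44 in Vehicle-OVA, 0.490 in Ribavirin and 6.01 in Ribavirin-OVA for Timp1. Mmp13 had 4.32 CPM in Vehicle-OVA and 0.901 in Ribavirin-OVA, beside 2.15 and 0.274 in T cell-like cells. T cell-like cells, which should lack these transcripts, had 0.681 CPM in Vehicle, 6.20 in Vehicle-OVA, 0.240 in Ribavirin and 3.47 in Ribavirin-OVA for Mmp12. For Timp1 they had 0.441 CPM in Vehicle, 5.32 in Vehicle-OVA, 0.480 in Ribavirin and 4.47 in Ribavirin-OVA. The levels of T cell-like cells were not far below, so those of these 3 genes in the neutrophil-like clusters are not read as expression by these cells.

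Mmp9, which cuts denatured collagen, was 1186 CPM in Vehicle, 732 in Vehicle-OVA, 1035 in Ribavirin and 1914 in Ribavirin-OVA in the neutrophil-like clusters. Vehicle-OVA was the lowest library and Ribavirin-OVA the highest, with 0.617 times (0.605 to 0.629) the level of Vehicle and 1.85 times (1.81 to 1.89) that of Ribavirin. The ratios differed between the clusters. Cluster 6, led by Camkk1, with Mmp9 and Siglecf next, had the highest level, 2803 CPM in Vehicle, 2492 in Vehicle-OVA, 2630.0 in Ribavirin and 2634 in Ribavirin-OVA, and its ratios were 0.889-fold (0.854 to 0.926) and 1.00-fold (0.967 to 1.04). Cluster 1, led by Gm13822 and Lrg1, had 1339.9 CPM in Vehicle, 1154 in Vehicle-OVA, 998 in Ribavirin and 1966 in Ribavirin-OVA, with ratios of 0.861-fold (0.813 to 0.913) and 1.97-fold (1.87 to 2.08). Cluster 4 had ratios of 1.51-fold (1.23 to 1.84) and 1.95-fold (1.69 to 2.24), so that the lower level of Vehicle-OVA in the sum was not seen in each cluster. Cluster 2, led by Csf3, had 174 CPM over the libraries, the lowest of the 7 clusters. Cluster 2 was 44.9% of the neutrophil-like cells of Vehicle-OVA and at most 10.5% of those of the other libraries, and cluster 6 was 46.3% of the neutrophil-like cells of Ribavirin-OVA and 7.44% to 11.1% of those of the others. Clusters 2, 10 and 21 came to 93.8%, 85.4% and 89.8% from 1 library each, so that these clusters may be that library and not a cell type. In cluster 24, Mmp9 was 2173 CPM in Vehicle, 2185 in Vehicle-OVA, 2191 in Ribavirin and 3009.5 in Ribavirin-OVA, with 3 libraries nearly equal and Ribavirin-OVA higher.

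Mmp8 was 111 CPM in Vehicle, 394 in Vehicle-OVA, 139 in Ribavirin and 181 in Ribavirin-OVA in the neutrophil-like clusters, 3.54-fold (3.37 to 3.72) higher with OVA in the vehicle pair. In the ribavirin pair it was 1.31-fold (1.22 to 1.40) higher. Its level differed widely between the clusters. Cluster 10, whose first leading gene was Mmp8 itself although Mmp8 had been left out of the clustering, had 1186 CPM over the libraries, cluster 1 had 238, cluster 2 had 109, cluster 6 had 35.1 and cluster 4 had 6.14. Of the 2533 cells of cluster 10, 2163 came from Vehicle-OVA. Within cluster 10 Mmp8 was 974 CPM in Vehicle, 1253 in Vehicle-OVA, 770.3 in Ribavirin and 799.7 in Ribavirin-OVA, and the OVA ratios, 1.29-fold (1.11 to 1.5) and 1.04-fold (0.887 to 1.22), were small. Within cluster 1 Vehicle-OVA had 0.836 times (0.722 to 0.964) the level of Vehicle. In clusters of low level the OVA library of the vehicle pair was higher, 3.62-fold (1.99 to 7.23) in cluster 6, 3.55-fold (1.69 to 8.93) in cluster 11 and 15-fold (4.55 to 39.1, from 30 and 5 UMIs) in cluster 4. The log2 ratio under vehicle was 0.91, under 2-fold, with the stricter naming. Without the clusters that came mostly from 1 library (2, 10 and 21), the log2 ratio under vehicle was -0.58 in place of 1.82, so its direction rests on them. In cluster 24, Mmp8 was 3104 CPM in Vehicle, 2269 in Vehicle-OVA, 3019 in Ribavirin and 4127 in Ribavirin-OVA, with Vehicle-OVA the lowest and Ribavirin-OVA the highest.

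Adam8 was 208 CPM in Vehicle, 700.3 in Vehicle-OVA, 395 in Ribavirin and 423 in Ribavirin-OVA in the neutrophil-like clusters, 3.37-fold (3.25 to 3.49) higher in the vehicle pair and 1.07-fold (1.03 to 1.12) in the ribavirin pair. In each library cluster 10 had the highest level (1034 CPM with the libraries pooled) and cluster 4 the lowest (38.7). Within cluster 1 Vehicle-OVA had 1.34 times (1.23 to 1.46) the level of Vehicle, and Ribavirin-OVA had 0.837 times (0.760 to 0.921) that of Ribavirin. Inside cluster 6, which all libraries shared, Adam8 was 106 CPM in Vehicle, 231 in Vehicle-OVA, 129 in Ribavirin and 253 in Ribavirin-OVA, 2.18-fold (1.80 to 2.65) and 1.96-fold (1.70 to 2.27) higher with OVA. With the stricter naming the log2 ratio under vehicle was 0.93, and without clusters 2, 10 and 21 it was 0.77, both under 2-fold. Timp2, at 49.0 CPM in Vehicle, 123 in Vehicle-OVA, 67.9 in Ribavirin and 78.6 in Ribavirin-OVA, was 2.51-fold (2.33 to 2.72) higher under vehicle, which was likewise under 2-fold with the stricter naming (log2 ratio 0.74) and without those 3 clusters (0.69). Apart from cluster 4, its vehicle ratio within clusters went from 0.574-fold (0.422 to 0.766) in cluster 1 over 1.07-fold (0.746 to 1.59) in cluster 10 to 1.75-fold (1.23 to 2.57) in cluster 11. In cluster 4 it was 0.536-fold (0.0135 to 3.03), from 1 UMI in Vehicle-OVA and 168 in Vehicle. Mmp14 was 44.1 CPM in Vehicle, 24.5 in Vehicle-OVA, 22.2 in Ribavirin and 46.3 in Ribavirin-OVA in these clusters. With the libraries pooled it was highest in clusters 4 (73.2 CPM), 11 (67.1) and 6 (63.9), but cluster 11 had it at 11.0 CPM in Vehicle, 70.4 in Vehicle-OVA, 0 in Ribavirin and 115 in Ribavirin-OVA. Cluster 4 was 37.9% of the neutrophil-like cells of Vehicle and 0.499% of those of Vehicle-OVA. Within cluster 6, Mmp14 was 50.2 CPM in Vehicle, 92.3 in Vehicle-OVA, 34.4 in Ribavirin and 60.9 in Ribavirin-OVA, 1.84-fold (1.39 to 2.47) and 1.77-fold (1.33 to 2.38) higher with OVA.

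Among the other classes, Adam8 was higher with OVA in group 2 innate lymphoid cell (ILC2)-like cells, which make type 2 cytokines, at 28.0 CPM in Vehicle, 165 in Vehicle-OVA, 17.8 in Ribavirin and 181 in Ribavirin-OVA from 11, 107, 8 and 304 UMIs. In cDC-like cells it was 54.9 CPM in Vehicle, 117 in Vehicle-OVA, 69.8 in Ribavirin and 129.8 in Ribavirin-OVA. cDC-like cells also carried Timp1 at 5.79 CPM in Vehicle, 62.4 in Vehicle-OVA, 17.6 in Ribavirin and 51.6 in Ribavirin-OVA and Mmp14 at 28.5 CPM in Vehicle, 88.8 in Vehicle-OVA, 25.1 in Ribavirin and 65.7 in Ribavirin-OVA, with the OVA libraries the 2 highest for all 3 genes. Mmp12 in cDC-like cells was at 56.6 CPM in Vehicle, 83.5 in Vehicle-OVA, 37.0 in Ribavirin and 83.3 in Ribavirin-OVA. It differed less than these 3 genes in the vehicle pair, but more than Adam8 in the ribavirin pair. In Ribavirin-OVA, 1 cell held 24.5% of its 278 UMIs in cDC-like cells. In monocyte-like cells Mmp8 was 8.62 CPM in Vehicle, 257 in Vehicle-OVA, 14.6 in Ribavirin and 87.1 in Ribavirin-OVA, and in cluster 19 it was 59.7 CPM in Vehicle, 324 in Vehicle-OVA, 55.5 in Ribavirin and 107 in Ribavirin-OVA. The 11 neutrophil markers summed to 805 CPM in Vehicle, 4422 in Vehicle-OVA, 1218 in Ribavirin and 1432 in Ribavirin-OVA in monocyte-like cells, all 11 detected in each library, and their part in the Mmp8 level was not tested. Timp2 in T cell-like cells was 148 CPM in Vehicle, 85.1 in Vehicle-OVA, 132 in Ribavirin and 78.7 in Ribavirin-OVA, lower in both OVA libraries than in both controls. The class was made of other clusters with OVA, as cluster 5, led by Il17f, had 2550 of the 4881 T cell-like cells of Vehicle and 68 of the 1466 of Vehicle-OVA, and its part in the Timp2 level was not tested. Mmp13 had 61 UMIs in the endothelial-like cells of Ribavirin and at most 2 in those of the other libraries.

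Ribavirin was compared with vehicle in the pairs without and with OVA. These pairs share their libraries with the OVA pairs above, so the values are not independent of those. Without OVA, at most 1 of the 9 genes differed by 2-fold in each sum. With no 1 CPM added, Mmp8 in macrophage-like clusters (0.515 and 1.93 CPM) was also higher, 3.75-fold (1.80 to 8.56), from 10 and 32 UMIs. Over all cells, 1 of 9 genes was 2-fold higher in Ribavirin than in Vehicle (Timp1, 4.02-fold, 3.59 to 4.50) against 6.88% of all genes, and 0 were lower against 0.0978%. In macrophage-like clusters 1 was higher (Timp1, 7.82-fold, 4.24 to 15.8, from 12 and 80 UMIs) against 0.766% and 0 were lower against 0.101%. Within cluster 8 Timp1 was 0.570 CPM in Vehicle and 1.64 in Ribavirin, from 10 and 22 UMIs, levels not read as expression above. Cluster 7 had 12 cells in Vehicle and 39 in Ribavirin, and cluster 35 had 10 and 185. The part of these cells in the ratio was not tested. In neutrophil-like clusters 0 were higher against 0.939% and 0 were lower against 0.182%. Of the 1632 Timp1 UMIs of Ribavirin, 26.2% lay in epithelial-like and 21.3% in endothelial-like cells, which were 3.44% and 0.480% of its cells and 0.640% and 0.0657% of the cells of Vehicle. In neutrophil-like clusters Mmp14 was at 0.504 times (0.445 to 0.570) the level of Vehicle and Adam8 at 1.90 times (1.82 to 1.98), both just inside 2-fold.

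With OVA, 2 of 9 genes were 2-fold lower over all cells in Ribavirin-OVA than in Vehicle-OVA (Mmp13 at 0.269 times, 0.250 to 0.289, and Adam8 at 0.346 times, 0.338 to 0.354) against 2.7% of all genes, and 0 were higher against 6.28%. Without clusters mostly of 1 library the log2 ratio of Adam8 was -0.79, under 2-fold, in place of -1.52, and Mmp12, Mmp13, Mmp14 and Mmp19 were then 2-fold lower. In the macrophage-like clusters Mmp13 (0.329 times, 0.306 to 0.355) and Mmp8 (0.463 times, 0.384 to 0.557) were lower, 2 of 9 against 1.22%, and 0 were higher against 1.33%. The 11 neutrophil markers in the same cells summed to 2242 CPM in Vehicle-OVA and 798 in Ribavirin-OVA, and their part in the Mmp8 ratio was not tested. Mmp8 was under 2-fold with a mitochondrial limit of 20% and with classes set cell by cell. Within cluster 7, which had 1837 and 1245 cells in these libraries, Mmp13 in Ribavirin-OVA was 0.325 times (0.301 to 0.351) the level of Vehicle-OVA, Mmp12 0.799 times (0.775 to 0.823), Mmp14 0.747 times (0.727 to 0.767), Adam8 0.742 times (0.710 to 0.774) and Timp1 0.964 times (0.931 to 0.998). Timp2 in cluster 7 was the only one of the 9 that was higher, 1.68-fold (1.62 to 1.73). The Mmp13 difference depended on how cells were classed. With classes set cell by cell from marker UMIs the log2 ratio was 0.07 in place of -1.58, and with the stricter naming it was -0.74.

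In the neutrophil-like clusters of the same pair, Mmp9 was higher in Ribavirin-OVA, 2.62-fold (2.56 to 2.67), 1 of 9 against 35% of all genes. Mmp8 (0.460 times, 0.434 to 0.489) and Mmp13 (0.208 times, 0.0751 to 0.466, from 6 and 129 UMIs) were lower, 2 of 9 against 2.38%. T cell-like cells had Mmp13 at 2.15 CPM in Vehicle-OVA and 0.274 in Ribavirin-OVA, beside 4.32 and 0.901 in neutrophil-like clusters. As above, Mmp13 in the neutrophil-like clusters is not read as expression. The median log2 ratio over all genes was 0.78, so Mmp9 at 1.39 was 0.60 above it. Within clusters Mmp9 was less far apart, from 1.06 times (1.02 to 1.09) the level of Vehicle-OVA in cluster 6 to 1.79 times in cluster 2 over the 6 clusters with enough cells in both, and within cluster 10 Mmp8 was 0.638 times (0.592 to 0.687) that level. Without the clusters mostly of 1 library neither Mmp9 nor Mmp8 differed by 2-fold, with log2 ratios of 0.79 and 0.18. Clustering each library on its own gave 1.11 for Mmp8, so its direction differed with the clustering. With the stricter naming, 2 of 9 genes in neutrophil-like clusters and 4 of 9 in macrophage-like clusters differed by 2-fold in this pair. No share over all genes is given for that naming, so these counts cannot be set against a background.

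To compare how many cells had the transcript at equal depth, each cell was thinned to 1000 UMIs, and shallower cells were left out (0 to 269 per library in macrophage-like and 0 to 566 in neutrophil-like clusters). The share of macrophage-like cells with a Timp1 UMI was 0.147% in Vehicle, 18.5% in Vehicle-OVA, 0.527% in Ribavirin and 18.1% in Ribavirin-OVA (unthinned 0.510% in Vehicle, 40.3% in Vehicle-OVA, 2.46% in Ribavirin and 40.7% in Ribavirin-OVA). In T cell-like cells, which should lack the transcript, it was 0.0417% in Vehicle, 0.490% in Vehicle-OVA, 0.0298% in Ribavirin and 0.518% in Ribavirin-OVA at median depths of 4117 to 5160 UMIs, against 7869 to 9345 in macrophage-like cells. The OVA libraries were far above the T cell-like share. In Vehicle only 3 of 2045 macrophage-like cells had a Timp1 UMI, with an interval of 0.0303% to 0.428% that overlapped the T cell-like one of 0.00506% to 0.151%. In Ribavirin the intervals, 0.241% to 0.998% and 0.000755% to 0.166%, did not overlap. For Mmp12 the shares were 0.293% in Vehicle, 8.92% in Vehicle-OVA, 0.351% in Ribavirin and 5.51% in Ribavirin-OVA in macrophage-like cells and 0.0626% in Vehicle, 0.420% in Vehicle-OVA, 0% in Ribavirin and 0.288% in Ribavirin-OVA in T cell-like cells, where 0 of 3354 cells in Ribavirin allow a share of up to 0.0894%. For Mmp14 they were 15.4% in Vehicle, 44.4% in Vehicle-OVA, 13.5% in Ribavirin and 35.1% in Ribavirin-OVA in macrophage-like cells, all above the highest T cell-like share of 0.560%. For Mmp9 the shares of neutrophil-like cells were 54.2% in Vehicle, 32.2% in Vehicle-OVA, 51.1% in Ribavirin and 60.2% in Ribavirin-OVA (unthinned 71.5% in Vehicle, 46.7% in Vehicle-OVA, 72.6% in Ribavirin and 72.7% in Ribavirin-OVA), with Vehicle-OVA lowest, and for Adam8 they were 17.8% in Vehicle, 40.5% in Vehicle-OVA, 28.0% in Ribavirin and 26.8% in Ribavirin-OVA with Vehicle-OVA highest. The share of cells of cluster 24 with a Mmp8 UMI was 84.2% in Vehicle, 71.2% in Vehicle-OVA, 80.9% in Ribavirin and 86.8% in Ribavirin-OVA.

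The other genes of the system were taken from lists chosen with earlier results of these data known, and are described by counts. Over all cells, the shares over all genes were 10.1% higher and 5.42% lower under vehicle, and 5.85% and 1.23% under ribavirin. In macrophage-like clusters they were 10.5% and 5.55% under vehicle, and 8.21% and 3.59% under ribavirin. Of the 17 other matrix metalloproteinases, 10 had enough UMIs over all cells, and 1 (Mmp15) was higher and 1 (Mmp2, gelatinase A) lower with OVA under vehicle. Mmp25, a membrane-bound enzyme of leukocytes, stood at 2.86 CPM in Vehicle, 13.1 in Vehicle-OVA, 3.81 in Ribavirin and 10.4 in Ribavirin-OVA in neutrophil-like clusters and was 2-fold higher in both OVA pairs, 4.59-fold (3.38 to 6.35) and 2.72-fold (1.92 to 3.84). Of 7 other inhibitors, 5 had enough UMIs and 1 (Timp3) was higher with OVA under vehicle, at 0.808 CPM in Vehicle, 18.5 in Vehicle-OVA, 25.0 in Ribavirin and 33.5 in Ribavirin-OVA, which was under 2-fold under ribavirin. Of 14 other ADAM and ADAMTS proteases, 4 were higher under vehicle and 2 others under ribavirin. Of 12 activators of proenzymes, 5 of the 11 with enough UMIs were higher and 1 lower under vehicle, and 3 were higher under ribavirin. Tpsb2 and Cma1, proteases of mast cells, were higher in both pairs, with Cma1 at 2.22 CPM in Vehicle, 19.6 in Vehicle-OVA, 1.68 in Ribavirin and 30.1 in Ribavirin-OVA.

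Of 10 matrix substrates, 4 were higher over all cells under vehicle and 2 higher and 2 lower under ribavirin. Fn1, fibronectin, was 43.0 CPM in Vehicle, 3047 in Vehicle-OVA, 83.6 in Ribavirin and 2693 in Ribavirin-OVA in macrophage-like clusters, 70.9-fold (66.2 to 76.0) and 32.2-fold (30.5 to 34.0) higher with OVA, and Spp1, osteopontin, was 76.2 CPM in Vehicle, 3483 in Vehicle-OVA, 93.6 in Ribavirin and 2999 in Ribavirin-OVA. Both were among the leading genes of cluster 7, whose share of these cells differed between the libraries as given above. The part of that cluster in these levels was not tested. Of 11 partners and clearance genes, 5 were higher and 1 lower in macrophage-like clusters under vehicle, and 2 were higher and 1 lower under ribavirin. Cd44, a surface receptor that can hold Mmp9, was 69.1 CPM in Vehicle, 466 in Vehicle-OVA, 87.6 in Ribavirin and 339.6 in Ribavirin-OVA there and higher in both pairs. Cd74, a partner that Timp1 has been described to bind, was 19975 CPM in Vehicle, 4658 in Vehicle-OVA, 17779 in Ribavirin and 6130.1 in Ribavirin-OVA and lower in both. Of the 14 transcription factors known for Mmp genes, 5 of 13 were higher and 1 lower in macrophage-like clusters under vehicle, and 1 was higher and 1 lower under ribavirin. The one higher in both was Fosl2 (125 CPM in Vehicle, 363 in Vehicle-OVA, 149 in Ribavirin and 320.1 in Ribavirin-OVA) and the one lower in both was Jun (0.476 times, 0.467 to 0.486 and 0.435 times, 0.426 to 0.444). Both belong to the family that binds the motif shown above, and a link of either to the Mmp levels was not tested. Of 18 genes known to respond to tissue dissociation, 7 were higher over all cells under vehicle and 1 under ribavirin, and in macrophage-like clusters 3 were higher and 2 lower under vehicle and 0 higher and 3 lower under ribavirin. Their part in the results was not tested.

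The genes whose pattern over cell classes was most like that of each of the 9 were ranked by Pearson's r of log levels across 12 classes, with the lowest r over the 4 libraries deciding, among 14281 genes. The classes share libraries and depths, so r is a description. The first were S100a9 (0.96 to 0.99) for Mmp9, Wfdc21 (0.95 to 0.98) for Mmp8, Lamp1 (0.92 to 0.95) for Mmp14, Lilr4b (0.93 to 0.95) for Adam8 and Tgfbi (0.91 to 0.94) for Mmp19. They were H2-M2 (0.89 to 0.96) for Mmp12, Ccl9 (0.82 to 0.91) for Timp1, Dppa3 (0.81 to 0.95) for Mmp13 and Agtrap (0.73 to 0.83) for Timp2. S100a8 and S100a9, calcium-binding proteins of neutrophils, were among the 3 nearest to Mmp9, and Lrp1, a receptor that also takes up metalloproteinases, was among the 3 nearest to Mmp14 (0.90 to 0.97). Among the 9 themselves, Mmp8 and Mmp9 were the most alike (0.88 to 0.92), and Mmp12 and Timp1 had r of 0.76 to 0.86. Mmp12 and Mmp8, which lie in the same block of chromosome 9, had r of -0.17 to -0.01.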

How the data were processed

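Single-cell libraries of magnetically isolated CD45+ nasal cells were deposited by the authors as UMI counts per gene and barcode, 1 library per group, made with Cell Ranger 5.0.0 on mm10 per the submitters' processing notes. The annotation is not given in the sources used here. Barcodes with at least 500 UMIs, at least 200 genes and at most 10% mitochondrial UMIs were kept. A doublet score was computed per library; its automatic threshold marked 5.29%, 0%, 3.28% and 0.612% of the barcodes of Vehicle, Vehicle-OVA, Ribavirin and Ribavirin-OVA, so the highest-scoring cells up to a rate of 0.4% per 1000 barcodes were removed instead (4.13% to 11.3%). The 4 libraries were clustered together (2000 variable genes, 30 principal components, 15 neighbours, Leiden resolution 1), with 92 Mmp, Timp, Adam, Adamts and mitochondrial genes left out. A cluster was named from the class with the highest marker score, with at least 3 detected markers. This naming rule was set after exploratory clusters had been seen.

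Counts were summed per class or cluster and library and given as CPM with exact Poisson 95% intervals. Ratios have exact conditional binomial intervals, and shares of cells have Clopper-Pearson intervals. UMIs remove PCR copies, and all intervals cover counting error only. The limit that 0 counts allow was set at 3 counts. A gene was called at a ratio of 2 of CPM + 1 with at least 50 UMIs over the 4 libraries. No test was run, since each group had 1 library. The named genes are the 9 members, the genes of the pathway lists, and the 3 genes most like each member. Members and lists were chosen with earlier results of these data known. The ratio and interval code was tested on simulated data. Alternatives changed the filters, doublets, pseudocount, gene minimum, scaling, clustering, naming and thinning. Python 3.11.15, NumPy 2.4.6, SciPy 1.17.1, pandas 2.3.3, leidenalg 0.10.2, igraph 0.11.9 and matplotlib 3.10.9 were used.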

Additional observations from a re-analysis of the deposited data

Results flagged for a closer look

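For 3 gene and cell combinations the OVA libraries lay on opposite sides of their controls under vehicle and under ribavirin. The differences between the pairs were not tested, since each group had 1 library. In neutrophil-like clusters Mmp9 was 0.617 times the control level under vehicle and 1.85 times under ribavirin. In cluster 6, which has the highest Mmp9 level, the same ratios were 0.889 and 1.00. In neutrophil-like clusters Mmp14 was 0.556 times the control level under vehicle and 2.08 times under ribavirin. With the stricter naming, which leaves out clusters 4 and 6, the log2 ratios of Mmp14 were 1.56 and 3.02, so that both pairs then had the same direction. Of the clusters left, cluster 11 had 5 Mmp14 UMIs in Vehicle, 258 in Vehicle-OVA, 0 in Ribavirin and 73 in Ribavirin-OVA. It was led by Hspa1b and Hspa1a and had a median depth of 1776 UMIs per cell. In cluster 1 the ratios were 5.20-fold (3.03 to 8.87) and 6.44-fold (2.99 to 13.6), and in cluster 10 they were within counting error. In macrophage-like clusters Timp2 was 0.677 times the control level under vehicle and 1.38 times under ribavirin. In cluster 8 its ratios were 1.25 and 1.52, and in cluster 20 they were 0.374 and 0.491, so that within each of these clusters both pairs had the same direction.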

How the results depend on the processing

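No paired analysis was possible because each group had 1 library and no replicate numbers. Of the 48 differences of single genes past 2-fold, 30 stayed past it the same way under every alternative, and 555 of 590 alternative values did. In macrophage-like clusters with OVA under vehicle, the log2 ratio of Timp1 ranged from 5.31 to 8.91 and that of Mmp12 from 4.28 to 6.25. With ratios centred on the median of all genes, the number of the 9 genes past 2-fold was 3 in place of 6 over all cells for OVA under ribavirin. In neutrophil-like clusters it was then 2 in place of 4 for OVA under ribavirin, 1 in place of 0 for ribavirin without OVA and 6 in place of 3 for ribavirin with OVA. Without clusters mostly of 1 library, an alternative chosen after seeing the data, the number was 4 in place of 2 over all cells for ribavirin with OVA, without Adam8 (log2 ratio -0.79 in place of -1.52). In neutrophil-like clusters it was 3 in place of 6 for OVA under vehicle and 0 in place of 3 for ribavirin with OVA, and the log2 ratio of Mmp8 was -0.58 in place of 1.82 and 0.18 in place of -1.11. Clustering each library on its own gave 1.11 for Mmp8 in the latter comparison. With classes set cell by cell, 1 gene in place of 0 differed in neutrophil-like cells for ribavirin without OVA, 0 in place of 1 in macrophage-like cells for the same pair and 0 in place of 2 for ribavirin with OVA, where the log2 ratio of Mmp13 was 0.075 in place of -1.58. A pseudocount of 0.1 CPM gave 1 in place of 0 in neutrophil-like and 2 in place of 1 in macrophage-like clusters for ribavirin without OVA. Resolution 2.0 gave 0 in place of 1 in macrophage-like clusters for that pair. For ribavirin with OVA there, a mitochondrial limit of 20% gave 1 and the stricter naming, also chosen after seeing the data, gave 4, in place of 2. The cause of these differences was not tested. Leaving out a replicate was not possible with 1 library per group. Few UMIs limit several control values, and macrophage-like Timp1 rested on 12 UMIs in Vehicle.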
